A study of Mus musculus with 56 samples.

Results

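The genes described here are the granule proteases and the pore-forming protein of cytotoxic lymphocytes: Gzma, Gzmb, Gzmc, Gzmd, Gzme, Gzmf, Gzmg, Gzmk, Gzmn and Prf1. They were taken by symbol, as 10 of the 47937 genes listed in both count tables, because several granzymes were already known to be higher in every comparison of these data, so the KO values below, and counts of members past the thresholds between KO and WT, are a description from which nothing is read. Differences of these effects between subsets and between genotypes were tested, and they use the same KO and WT values. RNA was sequenced from CD4 T cells of spleen and lymph node of C57BL/6 mice after 4 days of culture on anti-CD3 and anti-CD28 with IL-2. Cells labelled TH1 also received IL-12 and anti-IL-4, cells labelled TH2 received IL-4 and anti-IFN-γ, TH17 cells IL-6, TGF-β and IL-1β with both antibodies, and Treg cells TGF-β with both antibodies. Groups labelled ODC_KO or DOHH_KO carry Cd4-Cre with floxed Odc1 or floxed Dohh, and ODC_WT and DOHH_WT are the Cre-free controls of each table, so each table was read against its own WT libraries. The Cd4 promoter is active from the double-positive stage of the thymus, so that the deletion is not limited to CD4 cells, and the labels give no age of the mice. The Odc1 product makes putrescine, the first polyamine, and the Dohh product completes hypusine on the translation factor eIF5A, so the comparisons ask how the cells differ when either step is deleted. There were 4 libraries in each of 7 groups of the ODC table, 3 in TH2 ODC_KO, where replicate 1 was not analysed here, and 3 in each of 8 groups of the DOHH table. The labels do not tie libraries to animals. Same-numbered libraries of a genotype deviated together across subsets in most pairs, and the main fits take libraries as independent. The p-values measure the spread between these libraries. That spread was estimated per gene over all 8 groups of a table, WT and KO together. Leaving out a KO library can therefore change the p-value of a comparison between WT groups, and a missed call there need not reflect WT spread.

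Granzymes are serine proteases stored with perforin, the product of Prf1, in cytotoxic granules bound to the proteoglycan serglycin. After release at the contact with a target cell, perforin opens the membrane and granzymes enter: granzyme B cuts caspases and their substrates after aspartate, and granzymes A and K cut after basic residues. CD8 T cells and NK cells are the usual sources, and activated CD4 T cells can make granzyme B as well. Granzymes C, D, E, F, G and N form a rodent cluster beside Gzmb whose products are less well known.

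Total counts ran from 5905374 to 9145214 per library (ODC table) and from 6572148 to 12576933 (DOHH table), and levels are given as CPM relative to the library size after edgeR's TMM scaling over the genes tested, so a level can differ from the plain share of these totals. WT cells carried the markers of their labels: in the ODC table Tbx21 was at 119 to 205 CPM in TH1, Il4 at 36.2 to 69.5 in TH2, Il17a at 274 to 413 in TH17 and Foxp3 at 393 to 639 in Treg. Odc1, the gene targeted in ODC_KO, passed the test in no subset (log2 fold changes 0.26 ± 0.16, -0.20 ± 0.18, -0.40 ± 0.16 and 0.20 ± 0.16 in TH1, TH2, TH17 and Treg), and Dohh was higher, not lower, in the libraries labelled DOHH_KO (1.43 ± 0.26, 1.10 ± 0.26, 0.41 ± 0.26 and 1.15 ± 0.26). The counts are per whole gene and do not show the floxed exons, so the deletion cannot be read from them and KO groups are named by label throughout. Cd4 itself was at 661 to 968 CPM in DOHH_WT libraries and at 22.1 to 79.7 CPM in those labelled DOHH_KO. In this gene the libraries labelled DOHH_KO departed from the labelled cell type. Summed CD4 T cell markers (10 genes, Cd4 included) were 3899 to 4988 CPM in DOHH_WT and 2049 to 4154 CPM in DOHH_KO libraries. Of the 10, 3 were called lower in each subset of the DOHH table, against 11.6 to 15.2% of all genes tested. For ODC 0 to 3 were, against 7.21 to 13.6%, and none was called higher in either table. Median log2 fold changes of the list were -0.51 to -0.21 for DOHH and -0.80 to -0.04 for ODC. In the ODC table the sum was 4148 to 4764 CPM in TH1 ODC_WT and 3274 to 3614 CPM in TH1 ODC_KO. For TH2 it was 3677 to 4023 and 2538 to 2810 CPM, and the WT and KO ranges overlapped in TH17 and Treg. In bulk RNA, fewer cells of a type and less RNA per cell cannot be told apart, and this holds for every level below.

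The 10 genes lie at 3 places in the mouse genome (GRCm38, positions of the GENCODE genes). Gzmb (ENSMUSG00000015437.4) at chr14:56258838-56262260, Gzmc at chr14:56231441-56234656, Gzmf at chr14:56205263-56211417, Gzmn at chr14:56165797-56174599, Gzmg at chr14:56156582-56159579, Gzmd at chr14:56129556-56132608 and Gzme at chr14:56117626-56120625 follow each other on the minus strand. Gzma (chr13:113093825-113100981) and Gzmk (chr13:113171608-113225908) are neighbours on the minus strand of chromosome 13, and Prf1 is on the plus strand at chr10:61297833-61304680. Promoters are shown for the chromosome 14 genes because these genes neighbour each other and were read as one cluster. The sequences are from RefSeq (GRCm38.p6), where all 10 members were found, and each run covers positions -150 to -26 from the annotated start: chr14:56262360-56262484 for Gzmb, chr14:56234683-56234807 for Gzmc, chr14:56132619-56132743 for Gzmd, chr14:56120651-56120775 for Gzme, chr14:56211433-56211557 for Gzmf, chr14:56159605-56159729 for Gzmg and chr14:56174625-56174749 for Gzmn, all on the minus strand and written 5′ to 3′. Capitals mark the letters TGACGTCA, the cyclic AMP response element (CRE), and TGTGGT or its reverse complement ACCACA, the core bound by RUNX factors.
Gzmb: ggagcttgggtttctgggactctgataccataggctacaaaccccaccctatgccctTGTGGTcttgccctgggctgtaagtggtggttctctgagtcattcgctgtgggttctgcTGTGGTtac
Gzmc: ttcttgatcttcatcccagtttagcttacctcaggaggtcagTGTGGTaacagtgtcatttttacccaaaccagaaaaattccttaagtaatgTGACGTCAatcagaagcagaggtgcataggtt
Gzmd: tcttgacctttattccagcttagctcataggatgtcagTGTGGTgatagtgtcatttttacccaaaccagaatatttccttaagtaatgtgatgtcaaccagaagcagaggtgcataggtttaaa
Gzme: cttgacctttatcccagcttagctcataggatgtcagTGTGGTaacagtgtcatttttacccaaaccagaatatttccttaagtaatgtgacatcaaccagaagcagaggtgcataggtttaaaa
Gzmf: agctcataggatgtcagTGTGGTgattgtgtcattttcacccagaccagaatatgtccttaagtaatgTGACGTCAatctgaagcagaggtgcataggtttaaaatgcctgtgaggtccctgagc
Gzmg: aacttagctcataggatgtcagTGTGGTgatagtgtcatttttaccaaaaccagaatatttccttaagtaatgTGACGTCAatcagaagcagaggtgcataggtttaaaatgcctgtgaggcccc
Gzmn: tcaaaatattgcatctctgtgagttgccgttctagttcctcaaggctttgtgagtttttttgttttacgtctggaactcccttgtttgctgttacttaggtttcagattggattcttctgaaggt

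Over the 250 bases before the start, Gzmd and Gzme were identical at 94.8% of aligned positions, Gzmf and Gzmg at 82.2%, Gzmc and Gzme at 80.9%, and the lowest value among the promoters of Gzmc to Gzmg was 70.2%, for Gzmc and Gzmf. Gzmb, Gzma and Gzmn matched one another and the rest at no more than 49.5%. Both strands of the 250 bases were searched. The CRE letters stood in 3 of the 10 promoters, those of Gzmc, Gzmf and Gzmg, against 1.55% of 32851 mouse promoters of the same length. The letters TGTGGT stood in 8, all but those of Gzmk and Gzmn, against 14% of promoters. AGGAAG, the ETS core, stood in 6 (29.5% of promoters), AGGTGT, the T-box core, in the 3 promoters of Gzma, Gzmk and Prf1 (11.8%), TGANTCA, the AP-1 element, in Gzmb only (6.75%), and the STAT letters TTCNNNGAA in none (7.02%). The AP-1 letters do not overlap the RUNX letters in Gzmb. These are matches of letters in a window, and binding was not measured.

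The transcripts of the chromosome 14 genes also resemble each other. Of all 50-base stretches of its transcripts, Gzmd shared 21.9% with another gene, Gzme 20.6%, Gzmg 19.8%, Gzmf 7.36%, Gzmn 5.57% and Gzmc 4.14%, while Gzma, Gzmb, Gzmk and Prf1 shared none. Reads from shared stretches may have been dropped or placed at a neighbour by the authors' counting, so the split of counts among Gzmc to Gzmg and Gzmn is uncertain, and values for these genes are given also for their sum.

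In WT cells, the mean of Gzmb was the highest of the granzymes per length of transcript in all 8 groups, and TH1 cells carried most of it. Per kilobase of merged exons, mean Gzmb levels in ODC_WT cells were 1212 CPM per kb in TH1, 399.96 in TH2, 113 in TH17 and 64.6 in Treg. Prf1, its partner in the granule, stood at 39, 10.2, 8.20 and 3.43 CPM per kb, and Gzma at 40.3, 196, 27.4 and 3.19. In DOHH_WT cells the corresponding Gzmb levels were 783, 229, 11.2 and 15.4 CPM per kb. Gzma came close to Gzmb in TH2 DOHH_WT cells, at 226 against 229 CPM per kb, and was above it in replicate 3, at 221 against 179. At the other end, Gzmk was at 0.468 CPM per kb in TH1 ODC_WT cells and Gzmn at 0.0359.

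The order of the subsets among WT libraries was tested for the 9 members that passed the low-count filter (Gzmn did not), with edgeR's quasi-likelihood test and Benjamini-Hochberg adjustment over all genes, a call needing an absolute log2 fold change above 1 and an adjusted p below 0.05. Gzmb was higher in TH1 than in TH2 cells by 1.60 ± 0.39 in ODC_WT (adjusted p = 0.00358) and 1.77 ± 0.40 in DOHH_WT (adjusted p = 0.00536) on the log2 scale, in TH2 than in TH17 by 1.83 ± 0.40 in ODC_WT (adjusted p = 0.000492) and 4.34 ± 0.46 in DOHH_WT (adjusted p = 3.02e-07). The last step of the order, TH17 against Treg, did not pass the thresholds at 0.80 ± 0.39 in ODC_WT (adjusted p = 0.119) and -0.45 ± 0.41 in DOHH_WT (adjusted p = 0.639), and passed them in ODC_WT without TH17_ODC_WT replicate 2 (1.07, adjusted p = 0.0338). In Prf1, TH1 exceeded TH2 by 1.93 ± 0.42 in ODC_WT (adjusted p = 0.00104) and 2.23 ± 0.50 in DOHH_WT (adjusted p = 0.00539). TH2 against TH17 missed the threshold in Prf1, at 0.32 ± 0.42 in ODC_WT (adjusted p = 0.558) and 1.30 ± 0.52 in DOHH_WT (adjusted p = 0.0738), and the DOHH_WT difference passed it without TH17_DOHH_KO replicate 1 (adjusted p = 0.0437) or 3 (adjusted p = 0.0095). For TH17 against Treg the Prf1 difference was 1.26 ± 0.45 in ODC_WT (adjusted p = 0.0317) and 1.24 ± 0.57 in DOHH_WT (adjusted p = 0.218), a call made in the first table only and lost there without any 1 of TH17_ODC_WT replicates 1, 3 or 4 or Treg_ODC_WT replicates 1 or 2. The DOHH_WT difference was called without TH17_DOHH_KO replicate 3 (adjusted p = 0.0474).

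Gzma had another order, with TH2 cells at the top. TH1 minus TH2 was -2.28 ± 0.43 in ODC_WT (adjusted p = 0.000207) and -3.17 ± 0.38 in DOHH_WT (adjusted p = 5.25e-06). TH1 and TH17 did not differ beyond the spread in ODC_WT (0.56 ± 0.43, adjusted p = 0.308) but did in DOHH_WT (1.88 ± 0.38, adjusted p = 0.000915). TH17 exceeded Treg by 3.11 ± 0.52 in ODC_WT (adjusted p = 3.2e-05) and 1.82 ± 0.43 in DOHH_WT (adjusted p = 0.0072). Gzma thus spanned 5.95 ± 0.54 and 6.86 ± 0.47 log2 units between TH2 and Treg.

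The cluster genes of chromosome 14 were compared in the same way. Gzmc did not differ between TH1 and TH2 beyond the spread (0.42 ± 0.44 in ODC_WT, adjusted p = 0.561, and 0.38 ± 0.37 in DOHH_WT, adjusted p = 0.603), and its excess in TH1 over Treg was 1.32 ± 0.45 in ODC_WT (adjusted p = 0.018) and 2.05 ± 0.39 in DOHH_WT (adjusted p = 0.000405). The ODC call for Gzmc was lost without TH1_ODC_WT replicate 4 (0.74, adjusted p = 0.175) and without Treg_ODC_WT replicate 2. TH1 exceeded TH17 in Gzmc by 1.13 ± 0.45 in ODC_WT (adjusted p = 0.0465) and 2.30 ± 0.40 in DOHH_WT (adjusted p = 0.000198), and the ODC call was lost in 12 of 31 fits with 1 library left out. Gzmc in TH2 missed the threshold in ODC_WT against TH17 (0.71 ± 0.45, adjusted p = 0.203) and Treg (0.90 ± 0.45, adjusted p = 0.099), the latter passing it without TH2_ODC_WT replicate 2 (adjusted p = 0.0471), and passed it in DOHH_WT (1.93 ± 0.40, adjusted p = 0.00098, and 1.68 ± 0.39, adjusted p = 0.00232). Gzmd was higher in TH1 than Treg by 4.96 ± 1.19 in ODC_WT (adjusted p = 0.00116) and 5.47 ± 1.39 in DOHH_WT (adjusted p = 0.00656), and Gzmd in TH1 and TH2 differed by less than the spread (-0.07 ± 0.71 in ODC_WT, adjusted p = 0.966, and -0.44 ± 0.67 in DOHH_WT, adjusted p = 0.753). Gzme, Gzmf and Gzmg were called higher in TH1 and in TH2 than in TH17 and Treg in the ODC table, by 3.67 to 6.22 log2 units, and in no pair of the DOHH table. There Gzmf had 51 counts over the 3 WT libraries of TH1, 31 in TH2, 0 in TH17 and 4 in Treg, and its TH1 and TH2 differences from TH17 and Treg were called without TH1_DOHH_KO replicate 3 (adjusted p = 0.00237 for TH1 against TH17). Gzme was called in TH1 and TH2 against Treg without TH2_DOHH_KO replicate 3 (adjusted p = 0.0443 and 0.0203). The Gzme call between TH1 and TH17 was lost without TH1_ODC_WT replicate 4, the library with the most Gzmd and Gzme of its group. Within the ODC table Gzmf was also higher in TH1 than TH2 (1.75 ± 0.51, adjusted p = 0.0125), a call lost without TH1_ODC_WT replicate 4 or TH2_ODC_WT replicate 2, and so was Gzmk (1.87 ± 0.64, adjusted p = 0.0349), lost without any 1 of 5 libraries.

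In the ODC table, the members called were 5 of 9 between TH1 and TH2 (8.87% of all genes tested were called), 7 between TH1 and TH17 (14.9%), 8 between TH1 and Treg (19.4%), 6 between TH2 and TH17 (17.5%), 7 between TH2 and Treg (21.1%) and 2 between TH17 and Treg (14%), 35 of 54 in all. The DOHH table gave 3 between TH1 and TH2 (6.21%), 5 between TH1 and TH17 (12.4%), 5 between TH1 and Treg (15.5%), 4 between TH2 and TH17 (13.7%), 5 between TH2 and Treg (17.1%) and 1 between TH17 and Treg (7.07%), 23 of 54 in all. In both tables Gzma between TH1 and TH2 was the one call with the lower level in TH1, and every other call had the higher level in the subset named first.

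**Figure D1:**
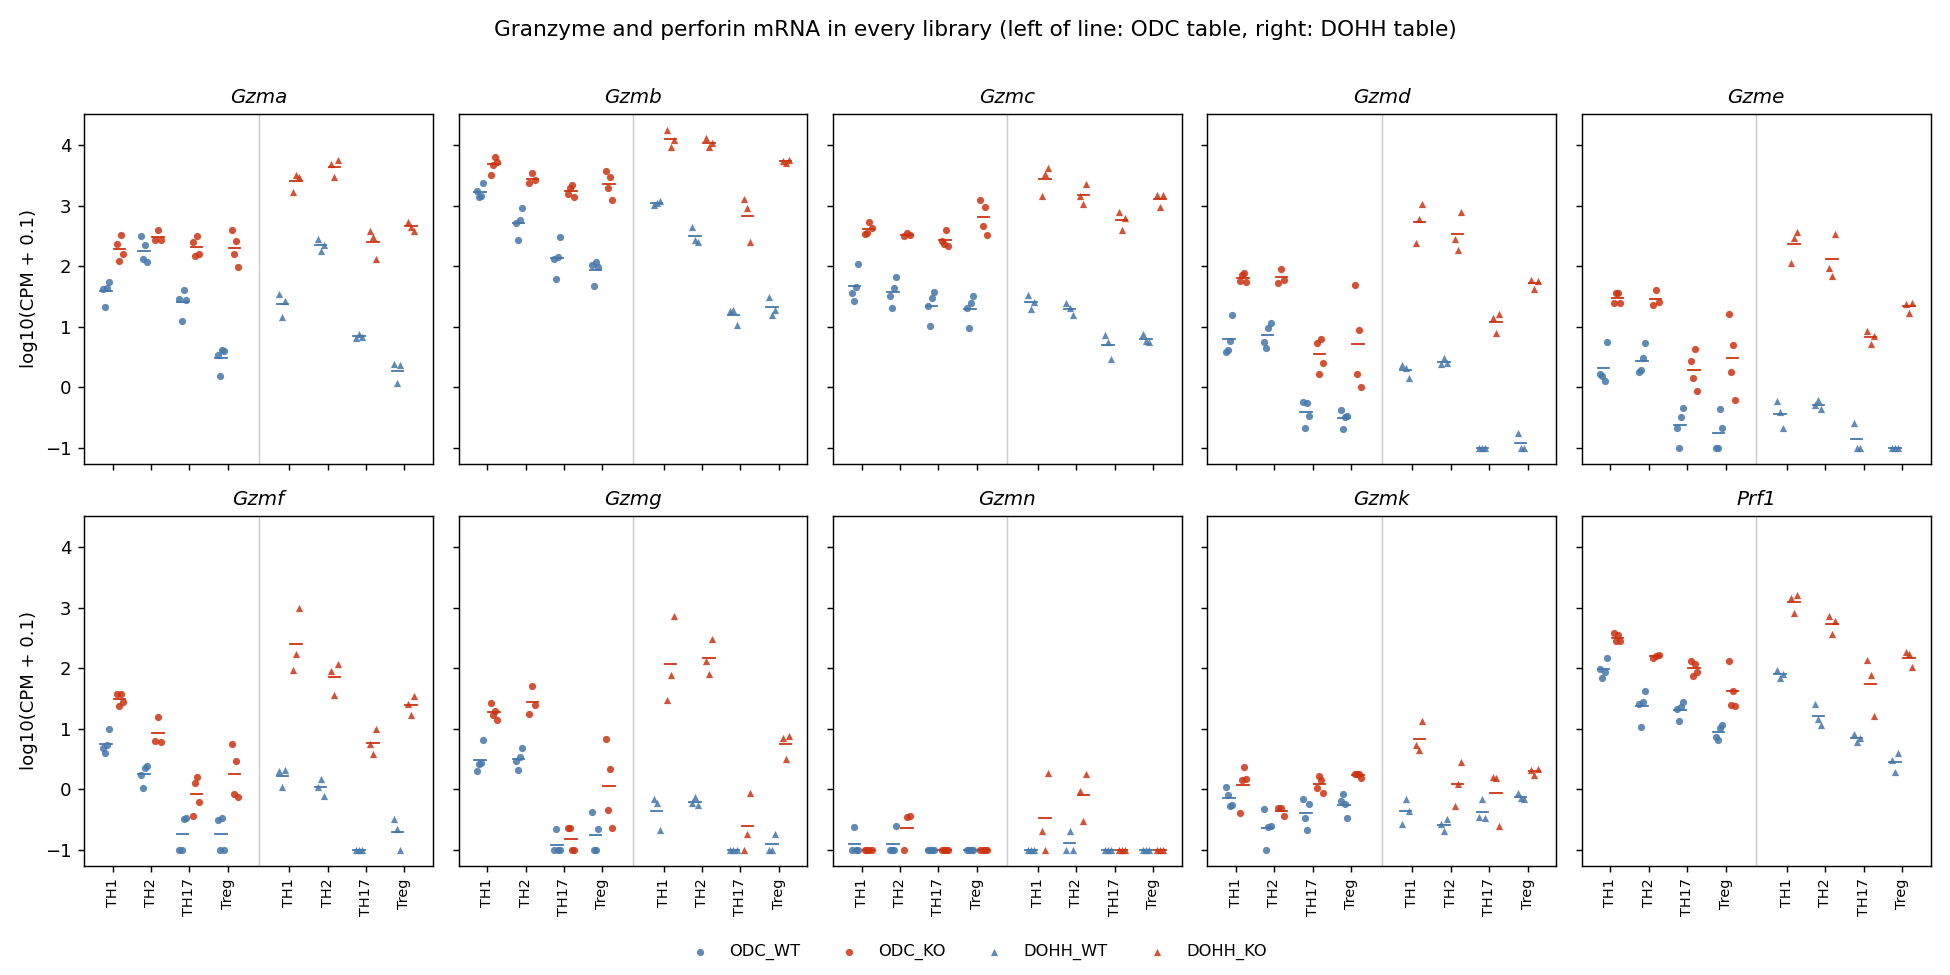
Level of each member in every library, as log10 of CPM + 0.1, by subset and table; circles are ODC and triangles DOHH libraries, blue WT and red labelled KO, and bars are means of the log10 values. The KO libraries sit above the WT libraries of their subset in most panels, and overlap with them or share values of 0 for Gzma in TH2 of the ODC table, Gzmg in TH17 of both tables and in Treg of the ODC table, and in several panels of Gzmk and Gzmn.

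Perforin is the pore that lets granzymes in. In TH1 cells Prf1 stood at 97.4, 69.99, 87.4 and 148 CPM in the ODC_WT libraries and 378, 277, 356 and 279 CPM in those labelled ODC_KO, and at 92.2, 68.4 and 81.4 CPM in the DOHH_WT libraries and 1435, 805 and 1598 CPM in those labelled DOHH_KO. The KO and WT groups did not overlap in either table. TH2 cells gave 25.8, 10.4, 27.8 and 41.8 CPM in the ODC_WT libraries and 151, 158 and 164 CPM in those labelled ODC_KO, and 25.6, 14.2 and 11.4 CPM in the DOHH_WT libraries and 726, 370.1 and 609 CPM in those labelled DOHH_KO. In TH17 cells the values were 21, 13.5, 22.8 and 27.4 CPM in the ODC_WT libraries and 132, 74.8, 119 and 86.7 CPM in those labelled ODC_KO, and 8.15, 5.85 and 6.81 CPM in the DOHH_WT libraries and 136, 78.4 and 16.2 CPM in those labelled DOHH_KO. Replicate 3 of TH17 DOHH_KO was the low one of its group and still above its 3 WT libraries. In Treg cells they were 7.30, 6.51, 10.4 and 11.3 CPM in the ODC_WT libraries and 134, 24.6, 41.9 and 23.5 CPM in those labelled ODC_KO, and 2.93, 1.82 and 3.92 CPM in the DOHH_WT libraries and 183, 171 and 104 CPM in those labelled DOHH_KO. One library, Treg_ODC_KO replicate 1, lay far above the rest of its group, and no KO library lay below a WT library. As log2 fold changes of KO over WT with SE, Prf1 was at 1.68 ± 0.40 in TH1, 2.58 ± 0.44 in TH2, 2.28 ± 0.42 in TH17 and 2.66 ± 0.45 in Treg cells for ODC, and 3.99 ± 0.53 in TH1, 5.05 ± 0.56 in TH2, 3.46 ± 0.54 in TH17 and 5.69 ± 0.60 in Treg for DOHH. Without Treg_ODC_KO replicate 1 the Treg value was 1.76, and without TH17_DOHH_KO replicate 1 the TH17 value of the DOHH table was 2.78.

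Gzmb, the caspase-activating granzyme, had the highest counts of the list. TH1 cells held 1745, 1400.4, 1452 and 2364 CPM in the ODC_WT libraries and 3272, 4833, 6465 and 5411 CPM in those labelled ODC_KO, and 1026, 1121 and 1227 CPM in the DOHH_WT libraries and 17916, 9325 and 12199 CPM in those labelled DOHH_KO. Every KO library exceeded every WT library of its table, and the highest was TH1_DOHH_KO replicate 1. For TH2 cells the levels were 513, 274, 583 and 928 CPM in the ODC_WT libraries and 2411, 3447 and 2700.3 CPM in those labelled ODC_KO, and 452, 277 and 257 CPM in the DOHH_WT libraries and 13440.3, 9255 and 11086 CPM in those labelled DOHH_KO. TH17 cells showed 135, 62.6, 142 and 307 CPM in the ODC_WT libraries and 1587, 1959, 2199 and 1388 CPM in those labelled ODC_KO, and 18.4, 19.1 and 10.9 CPM in the DOHH_WT libraries and 1303, 925 and 252 CPM in those labelled DOHH_KO. Of the 3 TH17 DOHH_KO libraries, replicate 3 was lowest. In Treg cells Gzmb was at 107, 47.6, 119.8 and 96.6 CPM in the ODC_WT libraries and 3788, 1960.3, 3053 and 1229 CPM in those labelled ODC_KO, and at 31.3, 15.8 and 19.1 CPM in the DOHH_WT libraries and 5614, 5054 and 5844 CPM in those labelled DOHH_KO. Of the Treg libraries labelled KO, 2 of 4 labelled ODC_KO and 3 of 3 labelled DOHH_KO exceeded every WT TH1 library of their table. Fold changes on the log2 scale were 1.52 ± 0.39 in TH1, 2.31 ± 0.42 in TH2, 3.46 ± 0.42 in TH17 and 4.76 ± 0.45 in Treg for ODC, and 3.55 ± 0.43 in TH1, 5.10 ± 0.47 in TH2, 5.67 ± 0.48 in TH17 and 7.96 ± 0.53 in Treg for DOHH. The values were smallest in TH1 and largest in Treg in both tables, and they share their WT libraries with the WT levels above.

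Gzma encodes the tryptase-like granzyme. In TH1 cells it was at 42.2, 21.5, 44.3 and 54.3 CPM in the ODC_WT libraries and 230.4, 123, 327 and 163 CPM in those labelled ODC_KO, and at 34.4, 14.7 and 26.4 CPM in the DOHH_WT libraries and 1713, 3280.4 and 3023 CPM in those labelled DOHH_KO. KO and WT were separate in both tables. TH2 cells of the ODC table held 319, 131, 222 and 116 CPM in the ODC_WT libraries and 270.5, 406 and 276 CPM in those labelled ODC_KO. The groups overlapped, the one overlap of Gzma in the 8 comparisons, and WT TH2 cells had the highest Gzma of the WT subsets. TH2 cells of the DOHH table gave 281, 177 and 222 CPM in the DOHH_WT libraries and 4899, 3008 and 5810.3 CPM in those labelled DOHH_KO. In TH17 cells the levels were 28.4, 12.5, 41.4 and 27.9 CPM in the ODC_WT libraries and 249.6, 149, 323 and 158 CPM in those labelled ODC_KO, and 6.38, 7.41 and 6.81 CPM in the DOHH_WT libraries and 385, 302 and 134 CPM in those labelled DOHH_KO. Treg cells had 3.39, 1.45, 4.03 and 3.96 CPM in the ODC_WT libraries and 395, 158, 258 and 98.7 CPM in those labelled ODC_KO, and 2.33, 1.09 and 2.22 CPM in the DOHH_WT libraries and 547, 454 and 389 CPM in those labelled DOHH_KO, which is the widest separation for this gene. Log2 fold changes were 2.38 ± 0.43 in TH1, 0.69 ± 0.43 in TH2, 2.99 ± 0.44 in TH17 and 6.15 ± 0.54 in Treg for ODC, and 6.73 ± 0.44 in TH1, 4.33 ± 0.39 in TH2, 5.32 ± 0.42 in TH17 and 7.89 ± 0.48 in Treg for DOHH.

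Gzmc, first of the rodent cluster after Gzmb, was present in WT cells of all subsets. TH1 cells held 35.97, 26.9, 46.2 and 108 CPM in the ODC_WT libraries and 343, 363, 532 and 433 CPM in those labelled ODC_KO, and 32.96, 20.02 and 26.02 CPM in the DOHH_WT libraries and 1481, 3329 and 4229 CPM in those labelled DOHH_KO. In TH2 cells the levels were 32.9, 20.8, 43.2 and 65.9 CPM in the ODC_WT libraries and 317, 349.8 and 332 CPM in those labelled ODC_KO, and 24.6, 20.3 and 15.9 CPM in the DOHH_WT libraries and 1437, 1074 and 2324 CPM in those labelled DOHH_KO. KO libraries stood apart from WT in both subsets. In TH17 cells Gzmc was at 21.9, 10.4, 30.2 and 36.9 CPM in the ODC_WT libraries and 264, 238, 396 and 216 CPM in those labelled ODC_KO, and at 7.35, 5.56 and 2.89 CPM in the DOHH_WT libraries and 779, 394 and 631 CPM in those labelled DOHH_KO. Treg cells gave 20.6, 9.40, 25 and 32.05 CPM in the ODC_WT libraries and 1229, 460.4, 942 and 329.7 CPM in those labelled ODC_KO, and 7.53, 5.84 and 5.62 CPM in the DOHH_WT libraries and 1542, 975 and 1519 CPM in those labelled DOHH_KO. Per length, the mean of Gzmc was above that of Gzmb in TH17 DOHH_KO, at 673 against 576 CPM per kb. Replicate 3 set that order, at 706 against 175 CPM per kb, while Gzmb was ahead in replicates 1 and 2, at 907 against 872 and 644 against 441 CPM per kb. Log2 fold changes were 2.94 ± 0.46 in TH1, 3.04 ± 0.48 in TH2, 3.48 ± 0.47 in TH17 and 5.09 ± 0.51 in Treg for ODC, and 6.84 ± 0.46 in TH1, 6.31 ± 0.45 in TH2, 6.81 ± 0.46 in TH17 and 7.72 ± 0.48 in Treg for DOHH.

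Gzmd was low in WT cells, and in TH17 and Treg cells almost absent. TH1 cells gave 3.76, 3.98, 5.81 and 15.8 CPM in the ODC_WT libraries and 57.7, 71.3, 77.3 and 56.1 CPM in those labelled ODC_KO, and 2.24, 1.99 and 1.35 CPM in the DOHH_WT libraries and 244, 605 and 1086 CPM in those labelled DOHH_KO. TH2 cells gave 5.63, 4.40, 9.36 and 11.5 CPM in the ODC_WT libraries and 53.9, 91.5 and 59.2 CPM in those labelled ODC_KO, and 2.30, 2.96 and 2.47 CPM in the DOHH_WT libraries and 279, 189 and 795 CPM in those labelled DOHH_KO. KO and WT libraries were separate in both subsets and tables. In TH17 cells Gzmd was at 0.464, 0.117, 0.452 and 0.232 CPM in the ODC_WT libraries and 5.32, 1.58, 6.32 and 2.47 CPM in those labelled ODC_KO. The 3 DOHH_WT libraries of TH17 had 0 counts, which allows up to 0.0959 CPM over the group, against 14, 7.71 and 16.02 CPM (340 counts) in those labelled DOHH_KO. Taken against a floor of 3 counts over the group, the TH17 level was at least 123-fold higher. In Treg cells Gzmd was at 0.318, 0.103, 0.230 and 0.233 CPM in the ODC_WT libraries and 50.1, 1.57, 8.80 and 0.912 CPM in those labelled ODC_KO. The ODC_KO Treg libraries were spread widely, replicate 1 being highest and replicates 2 and 4 near 1 CPM. For DOHH, Treg cells gave 0.0753, 0 and 0 CPM in the DOHH_WT libraries and 60.4, 42.7 and 56.8 CPM in those labelled DOHH_KO, a ratio of 1765 with a 95% counting interval of 316 to 69751, since WT held 1 count in all.

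Fitted log2 fold changes of Gzmd were 3.16 ± 0.67 in TH1, 3.15 ± 0.69 in TH2, 3.53 ± 1.23 in TH17 and 6.02 ± 1.10 in Treg for ODC, and 8.41 ± 0.67 in TH1 and 7.35 ± 0.64 in TH2 for DOHH. Some rest on single libraries. Without Treg_ODC_KO replicate 1 the Treg value was 3.99 in place of 6.02, and the TH17 value was no longer past both thresholds without TH17_ODC_KO replicate 3 or TH17_ODC_WT replicate 2. Without TH1_ODC_WT replicate 4, the TH1 value was 3.86. Without TH2_DOHH_KO replicate 3, which also had the highest sum of basophil and mast cell markers of its group, the TH2 value was 6.50.

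Gzme and Gzmd, whose promoters differ least, had like profiles. Their transcripts also share stretches, and the part of misplaced reads in this likeness was not tested. Gzme was at 1.59, 1.42, 1.16 and 5.48 CPM in the ODC_WT libraries and 24.8, 36.4, 35.6 and 25.2 CPM in those labelled ODC_KO in TH1 cells, and at 0.497, 0.299 and 0.112 CPM in the DOHH_WT libraries and 114, 298 and 365 CPM in those labelled DOHH_KO. TH2 levels were 1.71, 1.87, 2.94 and 5.25 CPM in the ODC_WT libraries and 23.2, 40.01 and 25.7 CPM in those labelled ODC_KO, and 0.412, 0.529 and 0.336 CPM in the DOHH_WT libraries and 94.1, 68.6 and 341 CPM in those labelled DOHH_KO. All KO libraries exceeded all WT libraries. TH17 cells of the DOHH table had 193 counts of Gzme in the 3 DOHH_KO libraries and 2 in the WT libraries, a ratio of 104 (95% counting interval 28.5 to 868). Treg cells of this table had 24.2, 17.1 and 25.2 CPM against 0 counts in WT, at least 244-fold higher over the group floor of 3 counts. In the ODC table Gzme was at 0 to 0.349 and 0.781 to 4.16 CPM in TH17 WT and KO libraries, and at 0 to 0.346 and 0.521 to 16.4 CPM in Treg. Log2 fold changes of Gzme were 3.66 ± 0.62, 3.34 ± 0.62, 3.52 ± 1.10 and 5.53 ± 1.01 for ODC in TH1, TH2, TH17 and Treg. The Treg value was 4.24 without Treg_ODC_KO replicate 1 and 6.81 without Treg_ODC_WT replicate 3, and the TH1 value was 4.44 without TH1_ODC_WT replicate 4. For DOHH they were 9.60 ± 0.77 in TH1 and 8.58 ± 0.74 in TH2, the latter 7.53 without TH2_DOHH_KO replicate 3.

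Gzmf and Gzmg, the pair whose promoters hold the CRE letters along with Gzmc, depended on 1 library in TH1 DOHH_KO. Gzmf was at 1.90, 0.996 and 2.02 CPM in the DOHH_WT libraries and 92.1, 171 and 983 CPM in those labelled DOHH_KO in TH1 cells, and Gzmg at 0.580, 0.498 and 0.112 CPM in the DOHH_WT libraries and 29.6, 75.9 and 719.96 CPM in those labelled DOHH_KO. Replicate 3, which also had the highest sum of basophil and mast cell markers of its group (491 CPM), held most of both transcripts. Its removal took the log2 fold change from 7.97 to 6.32 for Gzmf and from 9.33 to 6.95 for Gzmg, in either case still far above WT. In the ODC table, TH1 cells had 4.62, 3.84, 5.37 and 9.77 CPM in the ODC_WT libraries and 37, 23.4, 37.9 and 27.2 CPM in those labelled ODC_KO of Gzmf and 1.88, 2.56, 2.61 and 6.37 CPM in the ODC_WT libraries and 26.1, 16.7, 19.7 and 14 CPM in those labelled ODC_KO of Gzmg. In TH2 cells of that table Gzmg was at 2.82, 2.00, 3.34 and 4.66 CPM in the ODC_WT libraries and 17.8, 50.2 and 24.9 CPM in those labelled ODC_KO. Gzmf was at 1.59, 0.934, 2.14 and 2.33 CPM in the ODC_WT libraries and 6.23, 15.4 and 5.94 CPM in those labelled ODC_KO. The 2 genes were not tested against each other. DOHH TH2 libraries showed 0.494, 0.634 and 0.448 CPM in the DOHH_WT libraries and 129.99, 81.5 and 309.99 CPM in those labelled DOHH_KO for Gzmg and 0.988, 1.37 and 0.673 CPM in the DOHH_WT libraries and 90.02, 36.3 and 118 CPM in those labelled DOHH_KO for Gzmf. TH17 cells kept Gzmg near 0. They held 2 counts in ODC_KO against 1 in ODC_WT and 6 in DOHH_KO (0, 1 and 5) against 0 in DOHH_WT, where replicate 3 carried the difference. Gzmf in TH17 cells had 164 counts in DOHH_KO against 0, at least 59.2-fold higher. Treg DOHH_KO cells held 166 counts of Gzmg against 1, a ratio of 193 (95% counting interval 34.1 to 7653). Log2 fold changes of Gzmf were 2.41 ± 0.43, 2.39 ± 0.52, 2.70 ± 1.02 and 4.25 ± 0.84 for ODC, and those of Gzmg 2.51 ± 0.53, 3.27 ± 0.55 and 4.20 ± 0.99 in TH1, TH2 and Treg. Without Treg_ODC_KO replicate 1 the Treg value of Gzmg was 2.78, and without TH2_ODC_KO replicate 3 the TH2 value of Gzmf was 1.80. The TH17 value of Gzmf in the ODC table was not past both thresholds without any 1 of TH17_ODC_KO replicates 2 or 3 or TH17_ODC_WT replicates 1 or 2.

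Gzmn and Gzmk marked the low end of the list. Gzmn, whose promoter is unlike the rest, had 0 counts in every TH17 and Treg library of both tables. It had 4 counts in TH2 ODC_KO against 1 in ODC_WT, a ratio of 5.19 whose 95% counting interval (0.513 to 256) includes 1, and 26 counts against 1 in TH2 of the DOHH table, a ratio of 27.6 (4.53 to 1131). In TH1 DOHH_KO it had 17 counts against 0 in WT, at least 6.98-fold higher. These TH1 counts were 1, 0 and 16, so replicate 3 carried the difference, and without it 1 count stood against 0. Gzmk, the granzyme of memory CD8 cells, overlapped between KO and WT in part of the comparisons. It was at 0.166, 0.598 and 0.336 CPM in the DOHH_WT libraries and 5.31, 4.42 and 13.1 CPM in those labelled DOHH_KO in TH1 cells, and at 0.165, 0.106 and 0.224 CPM in the DOHH_WT libraries and 0.420, 1.12 and 2.76 CPM in those labelled DOHH_KO in TH2 cells. In TH17 cells of that table Gzmk was at 0.242, 0.585 and 0.231 CPM in the DOHH_WT libraries and 1.52, 1.45 and 0.151 CPM in those labelled DOHH_KO, replicate 3 lying below its 3 WT libraries. The ODC table had 0.435 to 1.01 and 0.302 to 2.25 CPM in TH1 WT and KO libraries, and 0.233 to 0.723 and 1.43 to 1.72 CPM in Treg. Its log2 fold changes were 1.01 ± 0.46 in TH1, 0.99 ± 0.75 in TH2, 1.68 ± 0.50 in TH17 and 1.70 ± 0.44 in Treg for ODC, and 4.36 ± 0.69 in TH1, 3.03 ± 0.79 in TH2, 1.60 ± 0.72 in TH17 and 1.51 ± 0.64 in Treg for DOHH. For DOHH, the TH1 value was 3.72 without TH1_DOHH_KO replicate 3, and the TH2 value was 2.15, no longer past the thresholds, without TH2_DOHH_KO replicate 3.

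**Figure D2:**
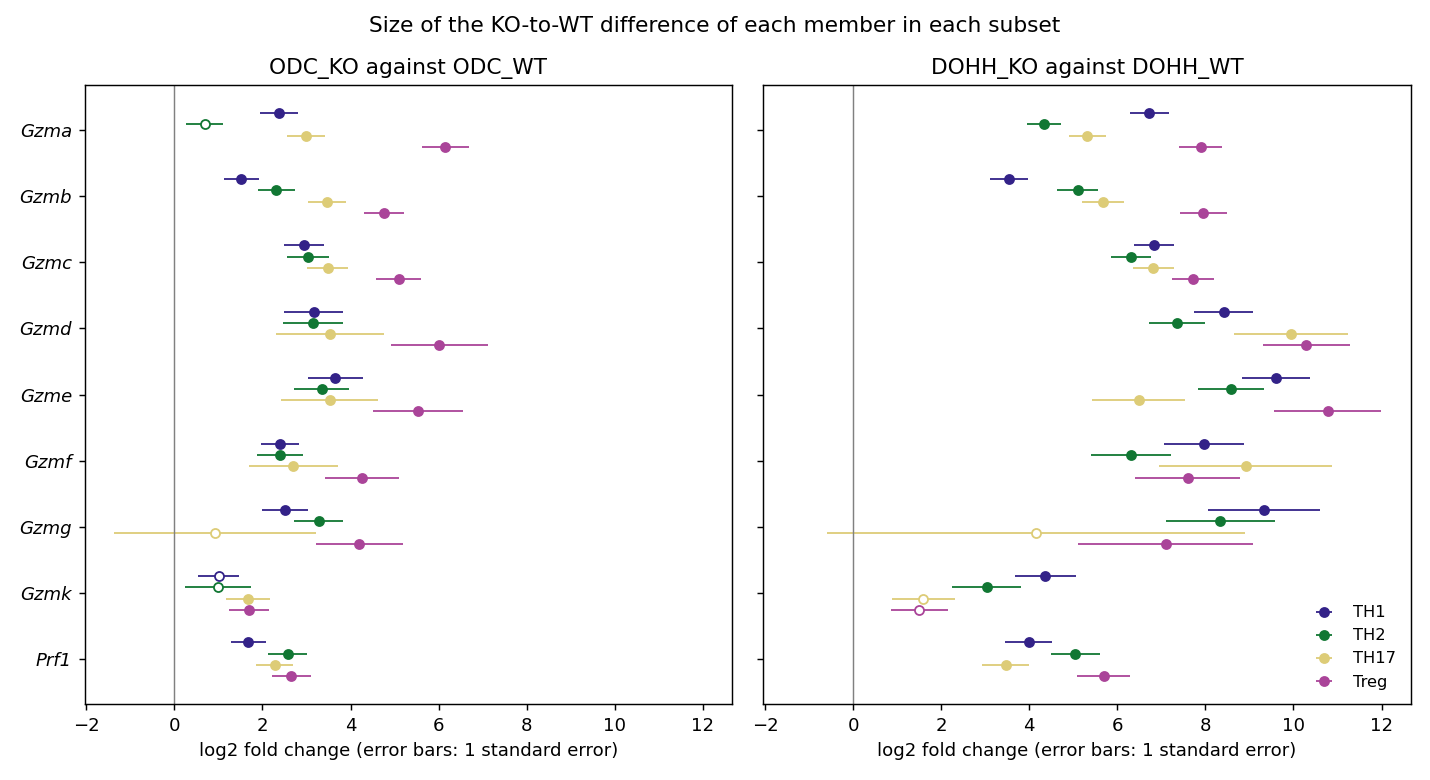
Log2 fold change of KO over WT for each member tested, with its standard error, by subset and table; filled points are past an absolute log2 fold change of 1 and an adjusted p below 0.05. All points lie above 0, and those of the DOHH table are above those of the ODC table for most members. Fitted values against WT groups at 0 counts (Gzmd, Gzmf and Gzmg in TH17, Gzme in Treg, DOHH table) depend on the prior count.

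Of the 9 members tested, the numbers past both thresholds and higher in KO were 8 in TH1 (10.2% of all genes tested were called higher), 7 in TH2 (11.5%), 8 in TH17 (8.35%) and 9 in Treg (13.9%) for ODC, and 9 in TH1 (14.8%), 9 in TH2 (14.3%), 7 in TH17 (17.3%) and 8 in Treg (17.5%) for DOHH, with none lower. The members were chosen on this contrast, so nothing is read from these counts. Of all 10 members, every KO library lay above every WT library for 8, 7, 8 and 8 members in TH1, TH2, TH17 and Treg of the ODC table, against 21.9%, 30.6%, 21.5% and 25.2% of all genes tested, and for 9, 10, 7 and 9 of the DOHH table, against 23.7%, 31.9%, 29.9% and 34.3%. This too describes genes chosen for being higher in KO. Median log2 fold changes over the 9 were 2.41, 2.58, 2.99 and 4.76 for ODC and 6.84, 6.31, 5.67 and 7.72 for DOHH, the same with members at 0 in WT set to their lower bound. Over all genes tested the medians ran from -0.00193 to 0.0731. With the counts of Gzmc, Gzmd, Gzme, Gzmf, Gzmg and Gzmn summed, the value of the sum was 2.94, 3.07, 3.48 and 5.10 for ODC and 7.23, 6.63, 6.87 and 7.75 for DOHH.

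Together the 10 genes took 0.148 to 0.263% of all counts in TH1 ODC_WT libraries and 0.421 to 0.756% in TH1 ODC_KO, and 0.127 to 0.145% and 1.35 to 2.41% in TH1 of the DOHH table. In Treg cells the shares were 0.00697 to 0.0173% and 0.172 to 0.573% for ODC, and 0.00242 to 0.00477% and 0.666 to 0.788% for DOHH. Gzmb made up 86.1 to 91.4% of the member counts of WT TH1 libraries. In TH1 libraries labelled KO it made up less, 74.9 to 84.4% for ODC and 50.4 to 77.8% for DOHH. In Treg of the DOHH table the share was higher in KO, at 70.1 to 75.0% against 60.5 to 69.3% in WT. In the other groups KO and WT overlapped, as in TH17 of the DOHH table, at 23.6 to 53.8% in KO and 39.3 to 49.6% in WT.

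Whether the effect of genotype differed among the 4 subsets was tested by the interaction in each table, a contrast the choice of members did not use directly. It was called for 3 of 9 members in the ODC table, Gzma (adjusted p = 1.25e-05), Gzmb (0.000416) and Gzmc (0.0257), where 34.8% of all genes were called, and for 2 in the DOHH table, Gzma (adjusted p = 0.000291) and Gzmb (0.000145), where 17.9% were (edgeR's quasi-likelihood F-test). The Gzmc call was lost without any 1 of Treg_ODC_KO replicates 1 (adjusted p = 0.0763) or 3 (0.054) or Treg_ODC_WT replicates 1 (0.0546) or 2 (0.0693). Prf1 was not called in either table, but was in the DOHH table without TH17_DOHH_KO replicate 1 (adjusted p = 0.0196) or 3 (0.0439).

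Most of the pairs called for Gzma, Gzmb and Gzmc had the larger effect in Treg cells. The Gzmb effect in TH1 was below that in Treg, at -3.24 ± 0.56 log2 units (adjusted p = 0.000181) for ODC and at -4.41 ± 0.58 (adjusted p = 4.62e-05) for DOHH. For Gzma, TH2 was below Treg by the most: the difference of effects, TH2 minus Treg, was -5.47 ± 0.69 (adjusted p = 2.34e-06) for ODC and -3.56 ± 0.54 (adjusted p = 0.000147) for DOHH. TH17 minus Treg gave -3.16 ± 0.66 (adjusted p = 0.0024) and -2.57 ± 0.55 (adjusted p = 0.00595). Treg pairs that missed the threshold for these genes were TH17 minus Treg in ODC for Gzmb (-1.29 ± 0.55, adjusted p = 0.139) and Gzmc (-1.61 ± 0.62, adjusted p = 0.101), TH1 minus Treg in DOHH for Gzma (-1.17 ± 0.54, adjusted p = 0.193), and all 3 Treg pairs of Gzmc in DOHH (adjusted p = 0.0952 to 0.374). Of the latter, TH2 minus Treg passed the threshold without TH2_DOHH_KO replicate 3 (-1.78, adjusted p = 0.0403). In the ODC table the Gzmc call of TH1 minus Treg was lost without TH1_ODC_WT replicate 4 (adjusted p = 0.058), and that of TH2 minus Treg without TH2_ODC_WT replicate 4 (0.0517) or Treg_ODC_KO replicate 1 (0.0511). In the DOHH table alone, Gzma also differed between TH1 and TH2, with an effect larger in TH1 by 2.39 ± 0.49 (adjusted p = 0.00909). The corresponding ODC difference was 1.69 ± 0.60 (adjusted p = 0.193), and the difference between tables of these values was not tested. TH1 minus TH17 was called for Gzmb alone, at -1.94 ± 0.55 (adjusted p = 0.0267) and -2.13 ± 0.57 (adjusted p = 0.0262), and this call was lost when any 1 of 5 libraries of the ODC table or any 1 of 6 of the DOHH table was left out.

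In all, pairs of subsets differed in 9 of 54 member tests of the ODC table and 7 of 54 of the DOHH table. The DOHH count was 12 with the library highest in basophil markers left out of each KO group. By pair, ODC had 0 members called between TH1 and TH2 (1.66% of genes), 1 between TH1 and TH17 (8.87%), 3 between TH1 and Treg (20%), 1 between TH2 and TH17 (20.8%), 3 between TH2 and Treg (26.7%) and 1 between TH17 and Treg (10.8%). For DOHH these were 1 (2.97%), 1 (6.95%), 1 (8.66%), 0 (7.45%), 2 (9.79%) and 2 (6.09%). Gzma, Gzmb and Gzmc accounted for all of them. For Gzmd to Gzmg, the standard error of the difference between TH1 and Treg effects was 1.03 to 1.49 log2 units for ODC and 1.78 to 7.59 for DOHH. These errors were derived from the test statistic and are unreliable for differences near 0 or groups with 0 counts. They set no limit of detection, and a missed call for these genes does not show equal effects.

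The effects of both genotypes were compared within each subset in 1 fit of both tables, as the DOHH effect minus the ODC effect. All 9 members had the larger effect in DOHH TH1 cells (21.9% of genes differed there), from 2.05 ± 0.58 (adjusted p = 0.00899) for Gzmb and 2.33 ± 0.63 (adjusted p = 0.00684) for Prf1 to 6.82 ± 1.24 (adjusted p = 0.000125) for Gzmg. The Gzmg difference was 4.50 and that of Gzmf 3.98 in place of 5.57 without TH1_DOHH_KO replicate 3. Gzma differed by 4.37 ± 0.61 (adjusted p = 1.1e-06) and Gzmc by 3.91 ± 0.62 (adjusted p = 1.4e-05) there. In TH2 cells 8 of 9 differed (18.4% of genes), again with the larger effect in DOHH, among them Prf1 by 2.46 ± 0.68 (adjusted p = 0.00874) and Gzme by 5.23 ± 1.09 (adjusted p = 0.00064), the latter 4.18 without TH2_DOHH_KO replicate 3. Gzmk was the exception, at 2.02 ± 1.21 (adjusted p = 0.254). TH17 cells gave 3 members (24.5% of genes), Gzma at 2.38 ± 0.61 (adjusted p = 0.00368), Gzmb at 2.26 ± 0.59 (adjusted p = 0.00434) and Gzmc at 3.38 ± 0.65 (adjusted p = 0.000156), and Prf1 at 1.23 ± 0.67 (adjusted p = 0.18) missed the threshold, which it passed without TH17_DOHH_KO replicate 3 (1.70, adjusted p = 0.0482). Treg cells gave 3 (29.9% of genes), Gzmb at 3.23 ± 0.60 (adjusted p = 4.9e-05), Gzmc at 2.66 ± 0.64 (adjusted p = 0.00127) and Prf1 at 3.06 ± 0.73 (adjusted p = 0.00116), the latter 3.99 without Treg_ODC_KO replicate 1. Without that library Gzmd in Treg was at 6.32 (adjusted p = 0.0493) in place of 4.27 (adjusted p = 0.333). Gzma in Treg, at 1.77 ± 0.71 (adjusted p = 0.0557), missed the threshold, and passed it in 18 of 55 fits with 1 library left out, with adjusted p from 0.0148 to 0.05. The tables have WT libraries of their own, and genotype cannot be told apart from whatever else differs between the tables.

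The chromosome 14 genes were then placed along the chromosome. Between the starts of Gzmb and Cma1, a mast cell chymase 317.6 kb away, lie the 7 cluster granzymes and the proteases Ctsg (cathepsin G) and Mcpt8 among others. Of the genes tested in this stretch, 9, 10, 10 and 11 of 11 were past both thresholds and higher in TH1, TH2, TH17 and Treg of the ODC table, and 11, 11, 11 and 12 of 12 in the DOHH table, with none lower. The members are part of this count and were chosen on it. Ctsg, at 4.58, 4.05, 4.80 and 4.32 for ODC and 5.78, 7.88, 7.47 and 7.28 for DOHH, and Mcpt8, a basophil protease, at 4.41, 3.23, 3.41 and 3.55 and at 6.97, 6.90, 8.36 and 6.18, are not members. In the next stretch, 362 to 652.2 kb from the Gzmb start, 20 genes were tested for ODC and 21 for DOHH. There 0 to 2 were higher and 4 to 7 lower for ODC, and 1 to 6 higher and 5 to 6 lower for DOHH. Khnyn (-2.58 to -1.73), Cbln3 (-4.01 to -1.16) and Rec8 (-4.08 to -1.36) were called lower in every subset of both tables, and no gene of this stretch was called higher in all of them. Over all genes tested, 8.35 to 13.9% were called higher and 7.21 to 13.6% lower for ODC, and 14.3 to 17.5% and 11.6 to 15.2% for DOHH. Median log2 fold changes were 2.60 to 4.76 (ODC) and 6.31 to 7.75 (DOHH) up to Cma1, and -0.48 to -0.05 and -0.26 to 0.25 beyond it. On the other side of Gzmb, 4 genes are annotated within 300 kb and none passed the filter.

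**Figure D3:**
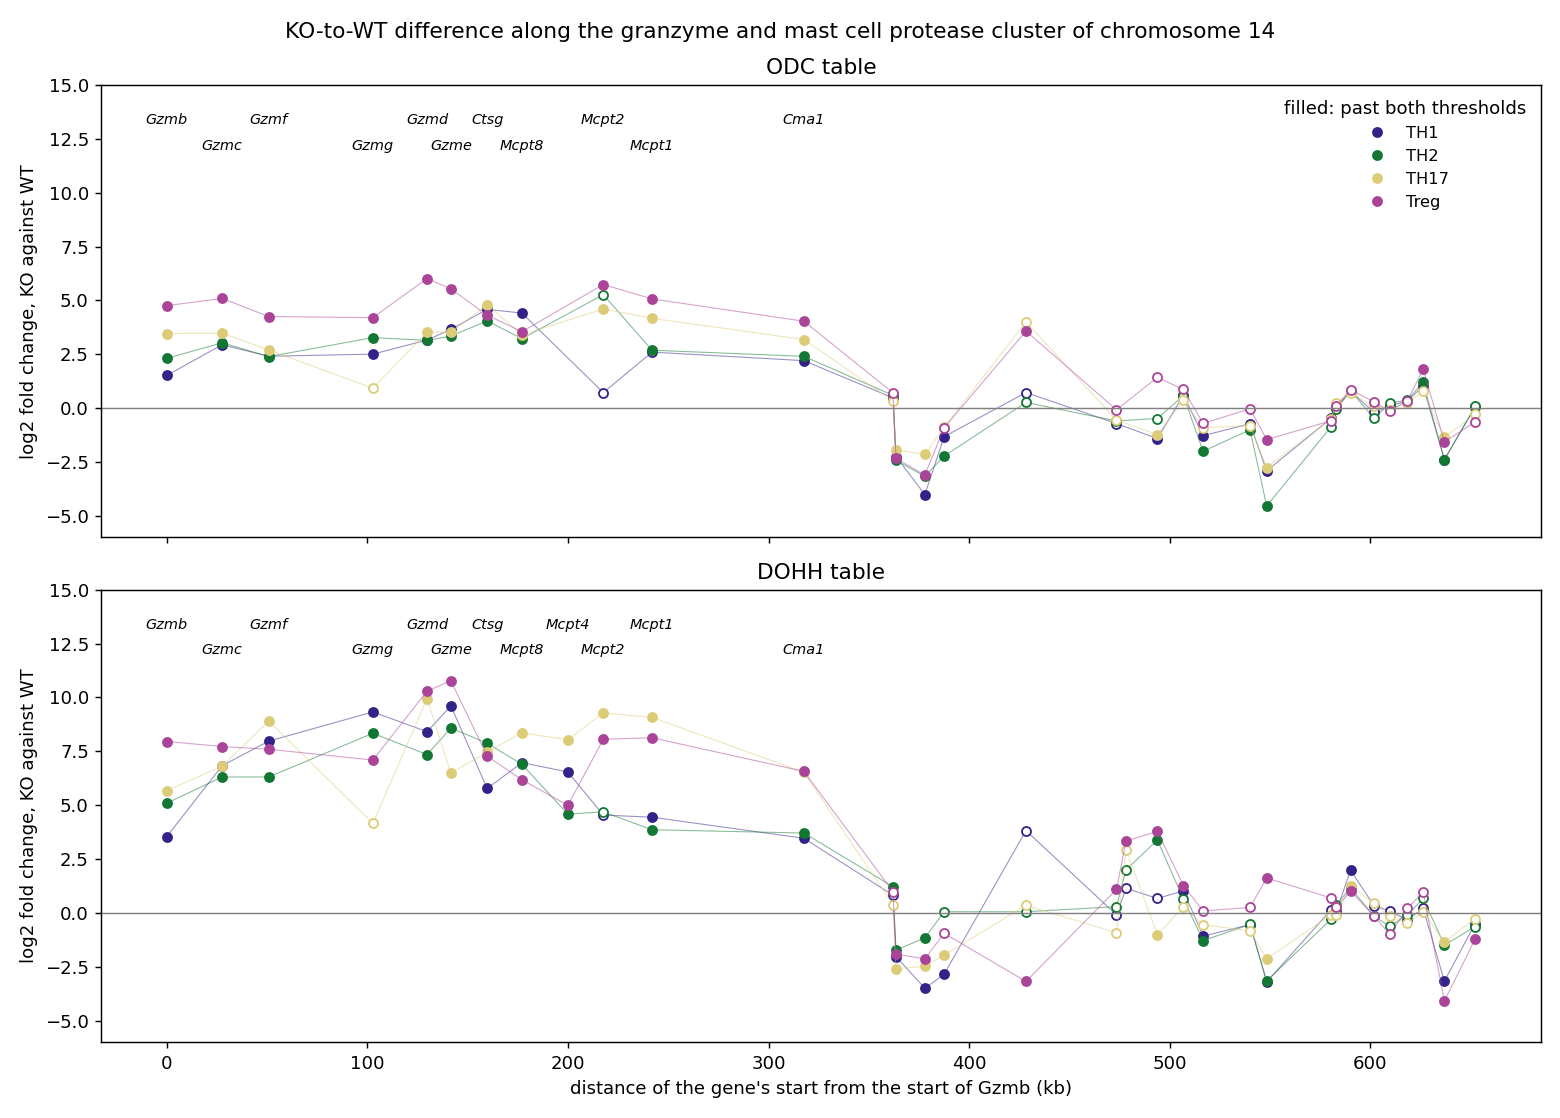
Log2 fold change of KO over WT against the distance of each gene's start from that of Gzmb, in kb, on chromosome 14, by subset and table; filled points are past both thresholds. Granzymes and neighbouring proteases up to Cma1 at 317.6 kb lie above 0. From 362 kb on values lie on both sides of 0, and Khnyn, Cbln3 and Rec8 are past both thresholds and lower in every subset of both tables.

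Gzmm, a granzyme outside the list that cuts after methionine and lies on another chromosome, passed the test in all 8 comparisons, by 3.18 ± 0.67 in TH1 to 1.83 ± 0.55 in TH17 for ODC and by 3.51 ± 0.62 in TH1 to 1.65 ± 0.62 in TH2 for DOHH. Of 10 genes that pack and activate granzymes, those called were 2, 2, 4 and 5 higher and 1, 1, 0 and 0 lower in TH1, TH2, TH17 and Treg for ODC, and 3, 4, 4 and 4 higher and 0, 0, 0 and 1 lower for DOHH, with medians between 0.54 and 0.97. Over all genes the shares called lower, for these and the lists that follow, were 11.3%, 13.6%, 7.21% and 10.1% for ODC and 14.2%, 11.6%, 14.1% and 15.2% for DOHH. Ctsc, cathepsin C, which removes the activating dipeptide of granzymes, rose in all 4 subsets of ODC (1.02 ± 0.21, 1.34 ± 0.23, 1.44 ± 0.21 and 1.09 ± 0.21) and in TH2 and TH17 of DOHH (2.11 ± 0.32 and 1.18 ± 0.31). Srgn, serglycin, was called in Treg DOHH_KO alone (1.84 ± 0.20). Nkg7, a granule membrane protein, rose in TH17 and Treg for ODC (2.87 ± 0.29 and 2.47 ± 0.27) and in every subset for DOHH (3.10 ± 0.29, 4.28 ± 0.31, 5.05 ± 0.32 and 3.75 ± 0.30).

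The exocytosis machinery (Unc13d, Stx11, Rab27a and others) had 0, 1, 2 and 2 of 10 genes higher and 1, 0, 1 and 2 lower for ODC, and 4, 3, 4 and 2 of 11 higher and 1, 0, 1 and 1 lower for DOHH. Of 6 serpins listed here as granzyme inhibitors, 3, 4, 2 and 3 were higher for ODC and 4, 5, 3 and 3 for DOHH, and 2 were lower in Treg of each table. Whether each of the 6 inhibits a granzyme was not examined. Serpinb9, which inhibits granzyme B, rose in TH1 and TH2 for ODC (1.34 ± 0.30 and 2.25 ± 0.34) and in the 4 subsets for DOHH (2.45 ± 0.43, 3.25 ± 0.46, 2.09 ± 0.52 and 2.43 ± 0.49). Its paralogue Serpinb9b rose in TH1 and TH2 for DOHH (6.21 ± 1.12 and 5.57 ± 1.31). Of 4 death ligands, the other route of killing, 0, 0, 3 and 1 were higher for ODC and 3, 2, 3 and 4 for DOHH, where 1 was lower in TH1 and in TH2. Fasl was called for DOHH only (1.32 ± 0.34, 2.89 ± 0.38, 3.23 ± 0.44 and 1.89 ± 0.35).

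Of 14 transcription factors of the cytotoxic program, 1, 4, 2 and 4 were higher and 1, 2, 3 and 3 lower for ODC, and 5, 4, 4 and 6 higher and 4 in each subset lower for DOHH. Eomes, a T-box factor of cytotoxic T and NK cells, rose in all 8 comparisons (3.75 ± 0.37, 2.66 ± 0.43, 2.18 ± 0.60 and 2.64 ± 0.31 for ODC and 1.97 ± 0.55, 3.97 ± 0.58, 4.44 ± 0.82 and 3.96 ± 0.58 for DOHH). Tbx21, its relative in TH1 cells, rose in all but TH1 of the ODC table, where it was at 0.41 ± 0.30, and reached 4.61 ± 0.39 in TH17 of the DOHH table. Runx3 was called in none. Prdm1, which encodes BLIMP1, rose in TH2 for ODC (1.32 ± 0.28) and in TH2, TH17 and Treg for DOHH (2.93 ± 0.28, 2.27 ± 0.29 and 2.71 ± 0.29).

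Markers of other cell types that make these transcripts moved with genotype, and their part in the granzyme values was not tested. The cells had been enriched by negative selection, meant to remove cells other than CD4 T cells. The study's methods state naive CD4 T cells, the labels name another CD4 T cell kit, and which was used is not settled. All 10 basophil and mast cell markers were detected in every KO group, and 8 to 9 of 10 passed the test as higher for ODC and 9 to 10 for DOHH. Their summed level was 7.34 to 52.2 CPM in ODC_WT and 36.5 to 371 in ODC_KO libraries, and 4.77 to 26.2 and 75.9 to 1350.5 CPM for DOHH. Prss34, a basophil protease, was at 0 counts in the TH1 DOHH_WT libraries and at 0.715, 98.2 and 4.85 CPM in those labelled DOHH_KO. Replicate 3 had the highest sum in all 8 KO groups. That replicate also had the highest Gzmb of its group in 4 of the 8, namely TH1, TH2 and TH17 of ODC_KO and Treg of DOHH_KO. Of the 8, it was highest in Gzmf in 7, in Gzmd in 6, in Gzmc, Gzme and Gzmg in 5 each (Gzmg in all 4 of DOHH_KO), in Gzma and Gzmk in 4 each and in Prf1 in 1, and in Gzmn in 2 of the 3 groups with a count. For Gzmb the order was another in the rest: TH17_DOHH_KO replicate 3 had the highest sum of all (1350.5 CPM) and the lowest Gzmb of its group (252 CPM), and TH1_DOHH_KO replicate 1 had the lowest sum of its group (124 CPM) and the highest Gzmb.

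Of 8 NK cell markers, 7, 7, 7 and 8 were higher for ODC, and 4, 3, 4 and 4 of the 4 that passed the filter for DOHH. Their sum was 2.79 to 24.2 CPM in ODC_WT and 28.7 to 200.1 CPM in ODC_KO libraries, and 3.95 to 8.78 and 37.7 to 408 CPM for DOHH. Ncr1, an NK cell receptor, was at 0 to 0.106 CPM in Treg ODC_WT and 2.09 to 5.81 CPM in Treg ODC_KO libraries, and did not pass the filter in the DOHH table. All 3 γδ T cell markers measured were higher in 7 of 8 comparisons and 2 of 3 in TH1 of the ODC table, with sums of 14.2 to 34.95 and 289 to 687 CPM for DOHH_WT and DOHH_KO. The CD8 T cell markers parted: Cd8a rose in TH17 and Treg for ODC (1.36 ± 0.53 and 3.46 ± 0.54) and in TH2, TH17 and Treg for DOHH (1.97 ± 0.47, 4.17 ± 0.46 and 4.86 ± 0.47), while Cd8b1 was not higher in any. Summed CD8 markers were 20.7 to 26.8 CPM in Treg DOHH_WT and 173 to 338 CPM in Treg DOHH_KO libraries, 22.7 to 26.2 and 87.7 to 151 CPM in TH17 of that table, and 16.2 to 41.4 and 144 to 219 CPM in Treg of the ODC table. The WT and KO ranges of the sum overlapped in TH1 of both tables, in TH2 of the DOHH table and in TH17 of the ODC table, and in TH2 of the ODC table it was lower in KO.

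**Figure D4:**
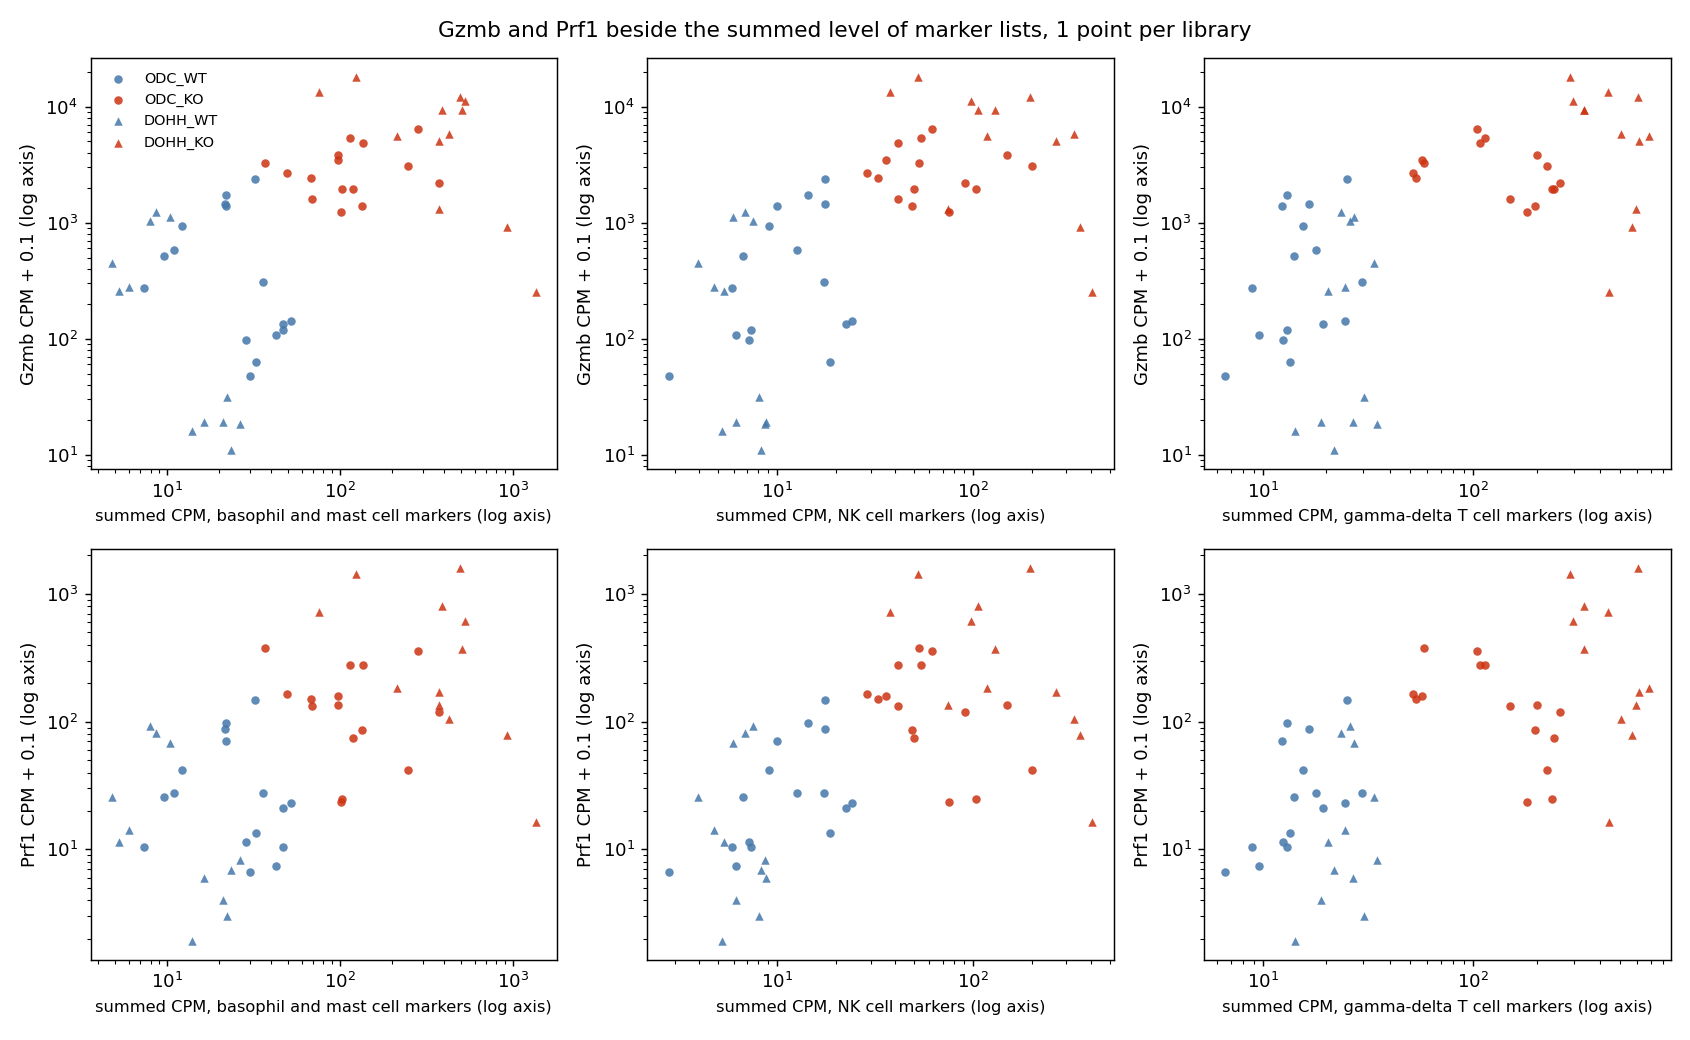
Gzmb (upper row) and Prf1 (lower row), as CPM + 0.1, against the summed CPM of markers of basophils and mast cells, NK cells and γδ T cells, both axes on a log scale, 1 point per library; circles are ODC and triangles DOHH libraries, blue WT and red labelled KO. KO libraries lie to the right of and above most WT libraries, and the point farthest right in the basophil panels is TH17_DOHH_KO replicate 3, at 1350.5 CPM of the sum and 252 CPM of Gzmb.

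The genes outside the list whose pattern was most like that of a member were found as those with the smallest root mean square difference in log2 CPM, centred on the mean of each table, over the 55 libraries and 12886 genes. For Gzmb these were Havcr2 (1.11), Ifitm3 (1.26) and Ly6c2 (1.29), for Prf1 Sytl3 (0.96), Nkain1 (0.99) and Gpr141 (1.05), for Gzma Gpx8 (1.35), Il10 (1.40) and Esm1 (1.51), for Gzmd Havcr2 (1.71), Me1 (1.74) and Esm1 (1.82), and for Gzmk Sla2 (0.68), Gm14029 (0.71) and Dennd4a (0.73). Some members were nearer to another member than to these genes, as Gzmb to Prf1 (1.04) and Gzmd to Gzme (0.69) and Gzmf (0.98). Prf1 was nearer to Sytl3 and Nkain1 than to Gzmb, and Gzma nearer to Gpx8 and Il10 than to Gzmb (1.46). Havcr2 encodes the receptor TIM-3, and Sytl3 a synaptotagmin-like protein. The points share libraries and genotype contrast, and Gzmd shares stretches of transcript with Gzme and Gzmf, so the likeness is a description.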

How the data were processed

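RNA sequencing counts were taken from 2 tables. As the study's methods and the submitters' processing notes state, poly(A) RNA libraries were made with a stranded kit, and reads were mapped with STAR to mm10 and counted per gene with featureCounts; DESeq2 and deepTools are also named, and versions, the annotation release and the strand setting are not given in the sources used here. The counts deposited by the authors are raw whole-number counts of reads per gene, without normalization. The labels hold 56 samples, of which 55 libraries were analysed; chromatin accessibility was not analysed here. Of 47937 identifiers, 47224 were found in the GENCODE M21 annotation of GRCm38, which gave symbols, positions and exon lengths, and the other 713 carry no symbol here.

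Levels are CPM over the TMM-scaled size of each library (its counts in the genes tested times the scaling factor), and a count of 0 allows 3 counts (95% level); such limits and counting intervals cover counting error only. Models were fitted with edgeR 4.0.16 in R 4.3.3, in each table on its own, with filterByExpr, TMM scaling, robust quasi-likelihood and 1 mean per group over all libraries (13839 and 13897 genes tested; 12924 in the fit of both tables). Calls needed an adjusted p (Benjamini-Hochberg over all genes tested) below 0.05 and, for fold changes, an absolute log2 value above 1. Standard errors, given after ±, are the absolute log2 value divided by the square root of the F statistic of its test. They are unreliable where the log2 value is near 0 or a group had a count of 0. Named genes are the 10 members, Gzmm, the targeted genes, and fixed genes of each pathway and marker list, with the 3 genes nearest to each of Gzma, Gzmb, Gzmd, Gzmk and Prf1. Il4, Il17a and Foxp3 are named as markers of the labels. Khnyn, Cbln3 and Rec8 are named because they were called lower throughout, beyond Cma1. The members and lists were chosen with earlier results of these data known. Alternatives were RLE factors, DESeq2 1.42.0, other low-count filters, no fold threshold, the replicate number as a block, summed cluster counts and each library left out; a block of genotype with number, and leaving out the KO library highest in basophil markers, were added after the data were seen. Replicate numbers paired ODC_WT libraries across subsets, since all 24 same-numbered pairs had deviations correlated above 0.1 (0.206 to 0.576). The same held for 20 of 21 pairs in ODC_KO, 15 of 18 in DOHH_WT and 13 of 18 in DOHH_KO. Blocking on the numbers left the same 35 calls between ODC_WT subsets. The p-values given for pairs of subsets and for interactions are from the fit without a block. That fit takes libraries as independent and leaves this pairing out. The model was tested on simulated data. Promoters were taken from RefSeq (GRCm38.p6) and compared with Biopython 1.88.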

Additional observations from a re-analysis of the deposited data

Results flagged for a closer look

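Among the 49 member groups of 4 libraries, all in the ODC table, 6 held 1 library far from the other 3 by Dixon's criterion, where chance alone sets 1 library apart in about 0.05 of groups. In TH1 ODC_WT, replicate 4 was high in Gzmd (15.8 CPM), Gzme (5.48 CPM) and Gzmg (6.37 CPM). In Treg ODC_KO, replicate 1 was high in Gzmd (50.1 CPM) and Prf1 (134 CPM), and replicate 4 was low in Gzmk (1.43 CPM).

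The effect of genotype differed among subsets, with the adjusted p of the interaction (edgeR's quasi-likelihood F-test), for Gzma (1.25e-05), Gzmb (0.000416) and Gzmc (0.0257) in the ODC table and for Gzma (0.000291) and Gzmb (0.000145) in the DOHH table. As log2 differences of effects in the ODC table, TH1 minus TH17 was -1.94 for Gzmb, and TH1 minus Treg was -3.78 for Gzma, -3.24 for Gzmb and -2.15 for Gzmc. TH2 minus TH17 was -2.31 for Gzma, TH2 minus Treg was -5.47 for Gzma, -2.44 for Gzmb and -2.06 for Gzmc, and TH17 minus Treg was -3.16 for Gzma. In the DOHH table TH1 minus TH2 was 2.39 for Gzma, TH1 minus TH17 was -2.13 and TH1 minus Treg -4.41 for Gzmb. TH2 minus Treg was -3.56 for Gzma and -2.86 for Gzmb, and TH17 minus Treg was -2.57 for Gzma and -2.28 for Gzmb. The last of these was lost without any 1 of 4 WT libraries of TH17 or Treg. In the ODC table the Gzmc difference of TH1 minus Treg was lost without TH1_ODC_WT replicate 4, and that of TH2 minus Treg without TH2_ODC_WT replicate 4 or Treg_ODC_KO replicate 1, and TH1 minus TH17 of Gzmb was lost when any 1 of 5 libraries (ODC) or 6 libraries (DOHH) was left out.

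The DOHH effect exceeded the ODC effect (edgeR, adjusted p below the threshold in 23 of 36 tests, with 21.9%, 18.4%, 24.5% and 29.9% of all genes called in TH1, TH2, TH17 and Treg) in TH1 cells by 4.37 for Gzma, 2.05 for Gzmb, 3.91 for Gzmc, 5.26 for Gzmd, 5.96 for Gzme, 5.57 for Gzmf, 6.82 for Gzmg, 3.38 for Gzmk and 2.33 for Prf1, in TH2 cells by 3.64 for Gzma, 2.77 for Gzmb, 3.26 for Gzmc, 4.20 for Gzmd, 5.23 for Gzme, 3.91 for Gzmf, 5.05 for Gzmg and 2.46 for Prf1, in TH17 cells by 2.38 for Gzma, 2.26 for Gzmb and 3.38 for Gzmc, and in Treg cells by 3.23 for Gzmb, 2.66 for Gzmc and 3.06 for Prf1, all on the log2 scale. With 1 library left out, some of these moved by over 1.5 times. Without TH1_DOHH_KO replicate 3 the TH1 values were 4.50 for Gzmg, 3.98 for Gzmf and 2.79 for Gzmk. Without TH1_ODC_WT replicate 4 they were 4.58 for Gzmd and 5.19 for Gzme, without TH1_DOHH_WT replicate 1 Gzme was at 6.58, and without TH1_DOHH_WT replicate 2 Gzmk was at 3.96. Without TH2_DOHH_KO replicate 3 the TH2 values were 3.35 for Gzmd, 4.18 for Gzme and 4.34 for Gzmg, and without TH2_ODC_KO replicate 3 Gzmf was at 4.51. Without Treg_ODC_KO replicate 1 the Treg value of Prf1 was 3.99. All of these kept adjusted p-values below the threshold.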

How the results depend on the processing

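No called difference, and no value of a member between KO and WT, changed direction under the alternatives run. The one count to move by over 1.5 times was that of pairs of subsets with different effects in the DOHH table, 12 in place of 7 with the library highest in basophil markers left out of each KO group, where the cause was not tested. Leaving out 1 library at a time gave 31 to 36 calls between WT subsets for ODC and 23 to 27 for DOHH, 2 to 3 members with an interaction in either table, 8 to 10 and 6 to 10 pairs of subsets, 23 to 25 differences between the DOHH and ODC effects, and 30 to 33 and 33 to 37 member tests past both thresholds between KO and WT. These include Gzmn, which passed the low-count filter and both thresholds in 18 of 24 fits in TH1 and in 18 of 24 in TH2 of the DOHH table. DESeq2 gave 34 and 33 calls between WT subsets, against 35 and 23 in edgeR. Same-numbered WT and KO libraries of a subset deviated together above 0.1 in 7 of 15 pairs for ODC and 1 of 12 for DOHH, so the number does not pair genotypes. With the replicate number as a block the counts were 35 and 26 between WT subsets, 3 and 3 with an interaction, 11 and 8 pairs of subsets, 24 differences between the DOHH and ODC effects, and 32 and 33 between KO and WT. Low counts limit Gzmg in TH17 and Treg cells, Gzmk most in TH2 cells and Gzmn in all. With 1 library left out, fitted values of Gzmd, Gzme, Gzmf and Gzmg moved most among the members, by up to 2.59 log2 units. The value of the summed cluster counts differed from that of a single cluster gene by up to 3.08 log2 units.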
